A study of Mus musculus with 135 samples.

Results

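The 10 genes described here encode the enzymes, receptors and transporter that handle extracellular ATP, adenosine and NAD: Entpd1, Entpd2, Nt5e, Cd38, Adora1, Adora2b, P2rx4, P2rx7, Adk and Slc29a1. They were chosen by symbol, and all 10 were found among the 55416 genes of each of the count tables, 1 for the cortex and 1 for the hippocampus. Polyadenylated RNA from whole pieces of cortex and of hippocampus had been sequenced in adult male Townes mice. In these knock-in mice the mouse globin genes are replaced by human ones, which give normal hemoglobin in AA mice and sickle hemoglobin in SS mice, so every mouse of both genotypes carries human globin. AA and SS mice were left untreated or were exposed to repeated social defeat (RSD), in which an aggressive intruder is placed with the resident mice on successive nights. Other mice received minocycline, a tetracycline antibiotic that dampens microglial activation, in the drinking water, either alone or together with RSD. The groups used in tests held 12 AA, 3 AA + RSD, 18 AA + RSD + minocycline, 14 SS + RSD + minocycline, 8 SS, 6 SS + RSD and 4 SS + minocycline mice for the cortex. The hippocampus groups were the same but for 11 AA and 7 SS mice. In each tissue 1 AA + minocycline mouse stood alone and entered no test.

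ATP and NAD leak or are released from stressed and dying cells and from erythrocytes that lyse. Outside the cell, ATP opens P2X channels on microglia and other cells, of which P2rx4 and P2rx7 encode the best known, and ectonucleotidases then remove its phosphates in steps. Entpd1 (CD39) of microglia and vessel walls and Entpd2 of glia cut ATP and ADP, and Nt5e (CD73) turns AMP into adenosine. Cd38 encodes the main enzyme that consumes NAD, made in the brain by glia and some neurons. Adenosine acts on Adora1, the abundant inhibitory receptor of neurons, and on Adora2b, a low-affinity receptor. It is cleared through Slc29a1 (ENT1), a nucleoside transporter, and by Adk, the adenosine kinase of astrocytes.

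Levels are given as CPM, the reads of a gene scaled to 1e+06 reads assigned to genes, and differences as log2 fold changes with their standard error (SE). A gene was called changed at an adjusted p under 0.05 by the quasi-likelihood test of edgeR over all genes tested. Libraries held 16295042 to 107713193 reads on genes in the cortex and 12869149 to 68731008 in the hippocampus. A few libraries went against their labels. In mouse 9674 (AA + RSD), the summed CPM of the hippocampal markers Prox1, Wfs1 and Fibcd1 was 470 in the library labelled cortex, against 43 to 323 in the other cortex libraries. It was 158 in the library labelled hippocampus, against 302 to 601 in the others. The erythroid gene Alas2, at 2.91 to 20.6 CPM in the other AA cortices without mouse 9631 and 54 to 180 CPM in the other SS cortices, was at 95.9 and 51.9 CPM in mice 5844 and 5853 labelled AA and at 6.47 CPM in mouse 7078 labelled SS. Mouse 9631, labelled AA, had 1944 reads of mouse Hbb-bs in the cortex, against at most 8 in the others. In each tissue, 1 pair of libraries labelled as different groups held identical counts and both were left out. The mouse numbers fall into 3 series, here A, B and C. All RSD mice without minocycline were in series A and all RSD + minocycline mice in series B or C, so that minocycline under RSD and the number series cannot be told apart except through the untreated mice, which were in series A and B. The share of reads outside genes differed too, with medians in untreated mice of 4.94% in series A and 9.69% in series B for the cortex.

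Cd38 was the member with the largest difference between tissues. Per length of exon, Adora1 was the highest member and Nt5e and Cd38 the lowest members of the cortex. Adora1 was at 42.9 ± 3.45 RPKM (the CPM divided by the kilobases of exon; SD, n = 20) in the cortex and 53.9 ± 4.17 RPKM (SD, n = 18) in the hippocampus of untreated mice. Adk followed at 4.62 ± 0.686 and 4.37 ± 0.682 RPKM. Slc29a1, Entpd2, P2rx4, Entpd1, Adora2b and P2rx7 had mean levels in the cortex of 2.44, 2.37, 2.15, 1.86, 1.41 and 1.15 RPKM, in that order. The ranges of neighbours overlapped within this order, while every untreated cortex had Adk above and Cd38 and Nt5e below all of these genes. Nt5e stood at 0.409 RPKM in the cortex and 0.436 RPKM in the hippocampus. Cd38 moved from 0.483 RPKM in the cortex, beside Nt5e, to 1.96 RPKM in the hippocampus, above Entpd1 at 1.87 RPKM and below Entpd2 at 2.56 RPKM. The level of Adora1 has a limit, since 57.4% of its exonic bases overlap genes of the other strand (Mybph and Gm70647) and the strand setting of the counting was not given in the sources used here. That share was 9.2% for Slc29a1 and at most 3.19% for the other members.

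The promoters of Cd38, Entpd1, P2rx7 and P2rx4 are shown because Cd38 and Entpd1 were the members called in the stress and drug comparisons, and because P2rx7 and P2rx4 are neighbours on chromosome 5 that differed between tissues in opposite directions. In GRCm39 Cd38 lies on chromosome 5 at chr5:44025875-44069717 and Entpd1 on chromosome 19 at chr19:40600810-40731585, both on the plus strand. P2rx7 lies at chr5:122781942-122830400 and P2rx4 at chr5:122845541-122867803, both on the plus strand with 15140 bases between them. The sequences are the 250 bases before the transcript start from RefSeq, in the older build GRCm38.p6, 5′ to 3′ on the plus strand. They span chr5:43868559-43868808 for Cd38, chr19:40612116-40612365 and chr19:40659520-40659769 for the first and second start of Entpd1, chr5:122643677-122643926 for the first start of P2rx7 and chr5:122707294-122707543 for P2rx4. Capitals mark GAGGAA, the core letters bound by the myeloid factor PU.1 and other ETS factors, or its reverse complement TTCCTC.
Cd38 promoter: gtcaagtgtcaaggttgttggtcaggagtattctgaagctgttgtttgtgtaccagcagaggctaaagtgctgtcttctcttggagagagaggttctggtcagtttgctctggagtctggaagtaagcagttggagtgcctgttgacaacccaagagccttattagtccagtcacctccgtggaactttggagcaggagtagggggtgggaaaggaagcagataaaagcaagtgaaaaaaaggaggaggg
Entpd1 promoter 1: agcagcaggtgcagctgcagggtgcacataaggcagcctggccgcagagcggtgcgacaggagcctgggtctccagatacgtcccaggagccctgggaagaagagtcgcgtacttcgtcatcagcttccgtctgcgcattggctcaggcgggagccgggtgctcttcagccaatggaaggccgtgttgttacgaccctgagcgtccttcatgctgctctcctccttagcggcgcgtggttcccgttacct
Entpd1 promoter 2: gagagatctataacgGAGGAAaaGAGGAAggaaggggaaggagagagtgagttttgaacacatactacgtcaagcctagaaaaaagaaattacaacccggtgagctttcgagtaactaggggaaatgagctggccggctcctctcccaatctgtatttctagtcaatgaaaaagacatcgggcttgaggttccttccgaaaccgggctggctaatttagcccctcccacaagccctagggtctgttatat
P2rx7 promoter 1: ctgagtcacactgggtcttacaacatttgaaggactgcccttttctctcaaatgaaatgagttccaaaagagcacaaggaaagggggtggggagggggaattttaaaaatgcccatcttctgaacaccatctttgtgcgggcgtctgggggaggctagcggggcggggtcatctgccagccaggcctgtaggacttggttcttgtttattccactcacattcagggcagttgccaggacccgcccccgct
P2rx4 promoter: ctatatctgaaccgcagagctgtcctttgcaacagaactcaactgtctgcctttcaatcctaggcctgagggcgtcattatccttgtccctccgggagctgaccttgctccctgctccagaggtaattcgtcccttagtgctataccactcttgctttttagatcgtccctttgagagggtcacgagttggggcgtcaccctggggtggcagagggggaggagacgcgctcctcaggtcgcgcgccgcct
All 10 members matched the RefSeq table, with 21 promoters in all. GAGGAA was found on either strand in 3 of the 21, namely the second Entpd1 promoter and 2 of the 8 promoters of Slc29a1, and in 23.3% of the 32851 mouse promoters of the same length. The GC box GGGCGG was found on either strand in 11 of the 21 and in 32.7% of all promoters. The Cd38 promoter held neither, had 1 CpG and a GC content of 48.8%, while the median over all promoters was 6 CpGs and 52.4%. Such matches describe letters only and name no site in use.

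Of the 10 members, 5 differed between hippocampus and cortex in untreated mice, against 46.1% of all 19255 genes tested, so the members' share was near the background. Cd38 was higher in the hippocampus, and Adora1, P2rx7 and Slc29a1 were higher by much less, while P2rx4 was lower. Cd38 spanned 1.43 to 2.93 CPM (median 2.19, n = 20) in the cortex and 7.02 to 10.9 CPM (median 8.80, n = 18) in the hippocampus, with no overlap between the tissues. Its log2 fold change was 1.99 (SE 0.081, edgeR adjusted p = 7.2e-23), a 3.98-fold difference. Within the 64 mice with both tissues Cd38 was higher in the hippocampus in 63, with a median log2 ratio of 1.91. The exception was mouse 9674, whose labelled tissues gave −1.41.

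The other called members had smaller differences and overlapping ranges. Adora1 spanned 238 to 315 CPM in the cortex and 284 to 407 CPM in the hippocampus, with a log2 fold change of 0.30 (SE 0.046, edgeR adjusted p = 5.26e-07), and it was higher in the hippocampus in 62 of 64 mice. P2rx4, the ATP-gated channel linked to microglial signalling, spanned 13.8 to 18.6 CPM in the cortex and 9.44 to 14.7 CPM in the hippocampus. It fell by 0.43 on the log2 scale in the hippocampus (SE 0.048, edgeR adjusted p = 4.82e-10) and was lower there in 59 of 64 mice. P2rx7, whose channel drives release of interleukin-1 beta, went the other way, with a log2 fold change of 0.27 (SE 0.051, edgeR adjusted p = 2.53e-05) and a higher hippocampal level in 54 of 64 mice. Slc29a1 had a log2 fold change of 0.25 (SE 0.055, edgeR adjusted p = 0.000169) and was higher in the hippocampus in 48 of 64 mice. All 5 were called under each of the 8 alternatives run for this comparison, among them the mouse as a replicate block. Markers of other cells differed between the tissues as well: 3 of 3 choroid plexus markers and 4 of 5 astrocyte markers were higher and 4 of 5 neuronal markers lower in the hippocampus, and their part in these differences was not tested. In bulk tissue, fewer cells of a type and less RNA per cell cannot be told apart.

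Adk had a log2 fold change of −0.11 without a call (edgeR adjusted p = 0.281). With the mouse as a block the value was −0.10 and Adk was called (edgeR adjusted p = 0.00189), and with the share of reads outside genes as a term and no block it was −0.14 and also called (edgeR adjusted p = 0.0042). The deviations of Adk from the group means in the cortex and hippocampus of the same mouse had r = 0.875 over 18 mice. Adk was lower in the hippocampus in 56 of 64 mice. Entpd1, Entpd2, Nt5e and Adora2b had log2 fold changes of −0.02, 0.09, 0.06 and 0.08 and were not called. They were higher in the hippocampus in 38, 35, 34 and 34 of the 64 mice.

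**Figure D1:**
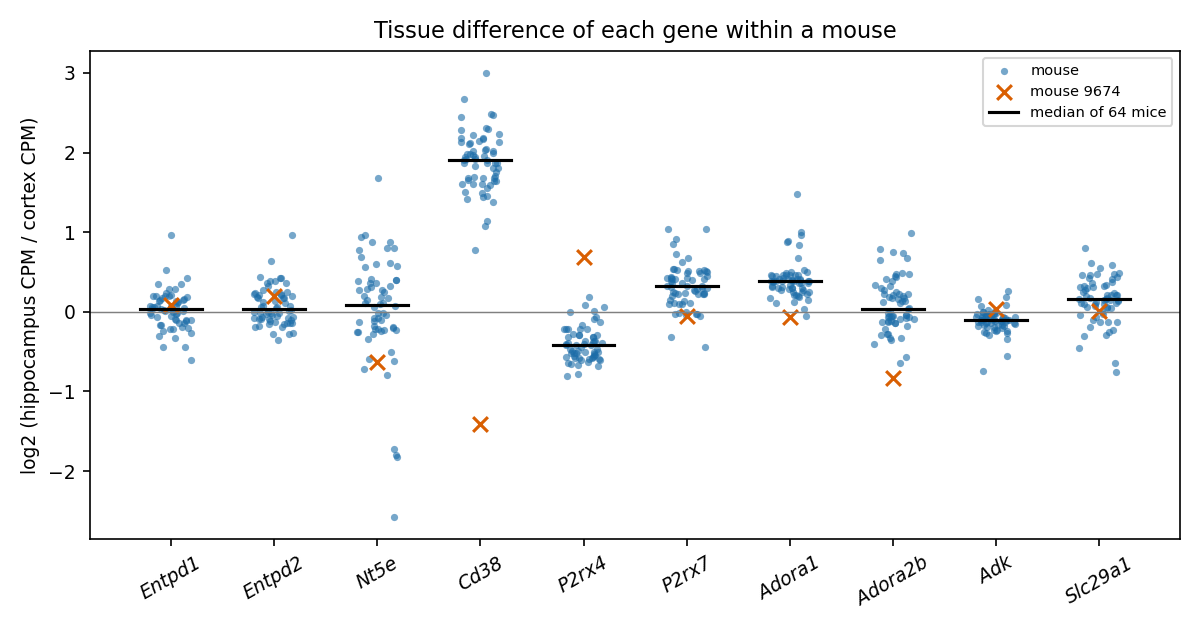
The y axis gives the log2 ratio of the hippocampus CPM to the cortex CPM of the same mouse, with a column on the x axis for each of the 10 genes, a point for each of 64 mice and a black line at the median. Cd38 stands apart with a median of 1.91, P2rx4 has a median of −0.42, and mouse 9674, drawn as a cross in each column, lies at −1.41 for Cd38.

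No member was called between SS and AA mice without RSD or minocycline. By edgeR 0 of 10 members passed in either tissue, against 0.214% of 22926 cortex genes and 0.159% of 23215 hippocampus genes. In both tissues 0 of 10 had an unadjusted p under 0.05, beside 1501 cortex and 862 hippocampus genes, and DESeq2 called 0 of 10. Cd38 spanned 1.43 to 2.59 CPM in the AA cortex and 1.53 to 2.93 CPM in the SS cortex, with medians of 2.12 and 2.28. The largest differences were 0.28 on the log2 scale for Adora2b in the cortex and 0.19 for Slc29a1 in the hippocampus.

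Under RSD + minocycline, edgeR and DESeq2 called 0 of 10 members in SS against AA mice, beside 0.624% of all genes by edgeR for the cortex and 2.74% for the hippocampus. In the cortex 5 members, Nt5e, P2rx7, P2rx4, Slc29a1 and Adora1, had an unadjusted p under 0.05, with log2 fold changes of 0.66, −0.21, −0.18, 0.16 and −0.17, and in the hippocampus 1 had, Entpd2, at −0.20. At that threshold stood 1893 of 22926 cortex genes and 1935 of 23215 hippocampus genes. Under RSD alone, with only 3 AA + RSD mice, both tools again called 0 of 10, beside 0.493% and 0.78% by edgeR. At an unadjusted p under 0.05 stood 0 members in the cortex and 2 in the hippocampus, Cd38 and P2rx4, beside 1111 and 2089 of all genes. Leaving out AA + RSD mouse 9643 from the latter comparison in the hippocampus gave calls for Cd38, at 1.01 on the log2 scale (edgeR adjusted p = 0.0272), and P2rx4, at −0.53 (edgeR adjusted p = 0.0328). The AA + RSD group then consisted of mouse 9646 and mouse 9674, the one with exchanged-looking tissues. The interaction of genotype and RSD called 0 of 10 members by either tool, beside 0.236% and 0.0474% of all genes by edgeR. Cd38 and P2rx4 of the hippocampus were the 2 members at an unadjusted p under 0.05, beside 676 cortex and 1545 hippocampus genes. For RSD + minocycline the interaction also called 0 of 10 by either tool, beside 0.0% of all genes in both tissues, where 652 and 1000 genes had an unadjusted p under 0.05 and DESeq2 called 2 and 1. Slc29a1 of the hippocampus was the 1 member at an unadjusted p under 0.05 there, with a difference of −0.33 between the genotypes on the log2 scale.

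Cd38 was called higher after RSD in the AA cortex, and the call rested on 1 library. In the AA cortex Cd38 stood at 2.6, 2.0 and 8.5 CPM in the AA + RSD mice 9643, 9646 and 9674, and at 1.43 to 2.59 CPM (median 2.12) in the 12 AA mice. The values of 9643 and 9646 lay within or at the edge of the AA range, and that of 9674 was at the level of hippocampus libraries. As labelled, Cd38 had a log2 fold change of 1.11 (SE 0.247, edgeR adjusted p = 0.0166) in AA + RSD against AA mice, and it was the only 1 of 10 members called, beside 0.853% of all genes. Without mouse 9674 the value was 0.15 (edgeR adjusted p = 0.945). Against AA + RSD, the AA + RSD + minocycline mice, at 1.48 to 2.57 CPM (median 2.09), were lower by label. Cd38 fell by 1.14 on the log2 scale (SE 0.234, edgeR adjusted p = 0.00389), again as the only member called, beside 3.6% of all genes. Without mouse 9674 the value was −0.19 (edgeR adjusted p = 0.727).

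In the AA hippocampus, edgeR and DESeq2 called 0 of 10 members in AA + RSD against AA, beside 1.19% of all genes by edgeR, and 0 of 10 in AA + RSD + minocycline against AA + RSD, beside 2.67%. The members at an unadjusted p under 0.05 were P2rx4 in the first comparison and Entpd1 in the second, 1 in each. At that threshold stood 3153 of 21563 genes in the first and 4178 in the second. P2rx4 stood at 12.2, 12.8 and 18.9 CPM in the AA + RSD mice 9643, 9646 and 9674, and at 9.44 to 14.7 CPM in AA mice. The Cd38 values of the 3 AA + RSD mice in the hippocampus were 10.7, 8.0 and 3.2 CPM, the lowest in mouse 9674, whose cortex value was the highest. AA + RSD + minocycline against untreated AA mice gave 0 of 10 in both tissues by either tool, beside 0.0319% of all genes for the cortex and 0.0% for the hippocampus by edgeR, where 622 genes had an unadjusted p under 0.05 and DESeq2 called 9. Entpd1 of the cortex was the 1 member at an unadjusted p under 0.05, beside 1404 cortex genes, with a log2 fold change of −0.17 (edgeR adjusted p = 0.736).

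**Figure D2:**
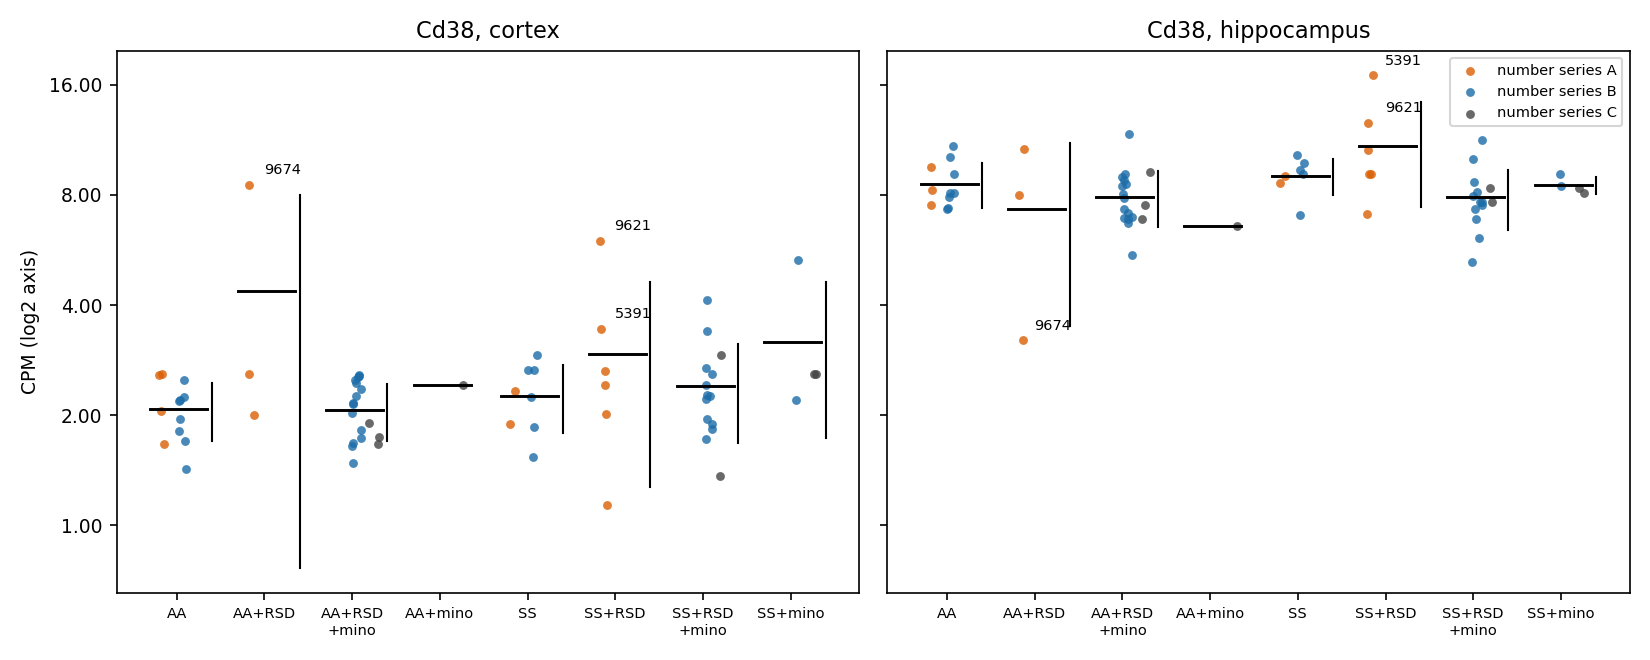
CPM of Cd38 on a log2 axis for every library of the cortex and the hippocampus by group, with each point coloured by the number series of its mouse, a black line at the group mean and a bar of the mean ± 1 SD to its right. Mice 9674, 5391 and 9621 are marked, and in the cortex the AA + RSD library of 9674 lies at 8.53 CPM while the other AA + RSD libraries lie at 2.6 and 2.0 CPM.

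In SS mice, Entpd1 was the member called with minocycline under RSD in both tissues, and its levels were highest in SS + RSD mice. In the cortex Entpd1 spanned 10.5 to 16.6 CPM (median 12.8) in the 8 SS mice, 14.6 to 23.7 CPM (median 16.2) with RSD and 8.31 to 18.5 CPM (median 12.4) with RSD + minocycline. The SS + RSD range overlapped both others, although 10 of the 14 SS + RSD + minocycline mice lay below every SS + RSD mouse. In the hippocampus it was at 12.4 to 16.5 CPM (median 13.5), 13.5 to 19.2 CPM (median 16.99) and 11.04 to 16.3 CPM (median 13.4), in the same order.

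SS + RSD against SS mice gave log2 fold changes of Entpd1 of 0.50 in the cortex (SE 0.150, edgeR adjusted p = 0.0585) and 0.34 in the hippocampus (SE 0.109, edgeR adjusted p = 0.072), both without a call. DESeq2 called Entpd1 in both tissues, at 0.46 (adjusted p = 0.0265) and 0.34 (adjusted p = 0.0287). That was 1 of 10 members in each tissue, beside 2101 of the 19906 cortex genes and 1488 of the 20701 hippocampus genes called by DESeq2. By edgeR 0 of 10 members were called, beside 2.57% of 19906 cortex genes and 3.11% of 20701 hippocampus genes. An unadjusted p under 0.05 was held by 2 members in each tissue, Entpd1 with Adk in the cortex and with Cd38 in the hippocampus. At that threshold stood 5508 of all cortex genes and 4050 of all hippocampus genes. Within number series A, which held all 6 SS + RSD mice but only 2 SS mice, the Entpd1 values were 0.15 and 0.16 on the log2 scale (edgeR adjusted p = 1.0 and 0.815).

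SS + RSD + minocycline against SS + RSD mice gave a fall of Entpd1 by 0.53 on the log2 scale in the cortex (SE 0.133, edgeR adjusted p = 0.0151). It was the only 1 of 10 members called, beside 8.85% of all genes. In the hippocampus Entpd1 fell by 0.35 (SE 0.0949, edgeR adjusted p = 0.033), and 2 of 10 members were called, beside 5.96% of all genes. When the number series was a term, the values were −0.04 (edgeR adjusted p = 1.0) in the cortex and −0.03 (edgeR adjusted p = 0.96) in the hippocampus. Those terms rest on the untreated mice. With the share of reads outside genes as a term they were −0.40 (edgeR adjusted p = 0.256) and −0.22 (edgeR adjusted p = 0.683), and without mouse 9621 the cortex value was −0.43 (edgeR adjusted p = 0.0502). Entpd1 was called in 12 of 15 alternatives in the cortex and in 6 of 14 in the hippocampus. SS + RSD + minocycline against untreated SS mice gave −0.04 and −0.01 for Entpd1, with 0 of 10 members called by either tool beside 0.0% of all genes by edgeR in both tissues. There 1227 genes of the cortex and 759 of the hippocampus had an unadjusted p under 0.05 and DESeq2 called 11 and 4, and 1 member in each tissue was at an unadjusted p under 0.05, Adora1 and Slc29a1.

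**Figure D3:**
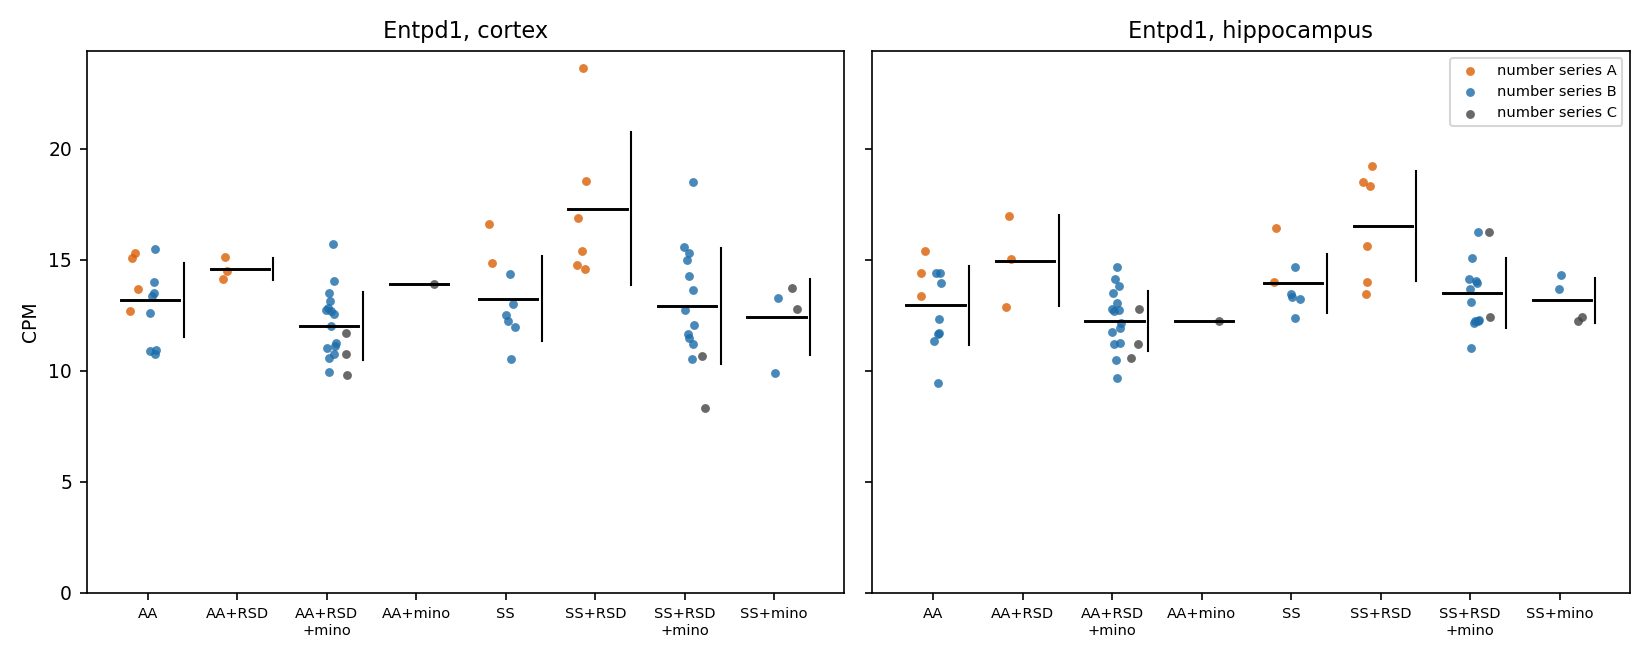
CPM of Entpd1, from 0, in every library by group for the cortex and the hippocampus, with points coloured by number series, a black line at the group mean and, to its right, a bar of the mean ± 1 SD. The SS + RSD mice, all of series A, have the highest group mean in both tissues, 17.3 and 16.5 CPM.

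Entpd1 was also among the members that differed between number series without any treatment. In untreated mice series A was higher than series B in Entpd1, by 0.30 on the log2 scale in the cortex (SE 0.084, edgeR adjusted p = 0.00683) and by 0.31 in the hippocampus (SE 0.092, edgeR adjusted p = 0.0112). Adk was higher by 0.37 and 0.38, and Adora1 by 0.22 and 0.23, with edgeR adjusted p of 0.00186 and 0.00681 for Adk. Entpd2 was higher in the hippocampus only by call, at 0.30 (edgeR adjusted p = 0.0181). These are 3 of 10 members in the cortex and 4 of 10 in the hippocampus, beside 40.3% and 40.8% of all genes, so the members' share was at or below the background. Entpd1 means were 14.7 ± 1.36 CPM (SD, n = 6) in series A and 12.6 ± 1.49 CPM (SD, n = 14) in series B for the cortex.

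Microglial markers moved beside Entpd1 in these comparisons. Of 5 microglial markers, among them the purine receptor P2ry12, 4 were higher in series A than in series B in both tissues, namely C1qa, Tmem119, Cx3cr1 and Csf1r. In SS + RSD + minocycline against SS + RSD mice 2 of 5 were lower in each tissue, Tmem119 and Csf1r in the cortex and Cx3cr1 and Csf1r in the hippocampus. Their summed CPM in the cortex spanned 199.9 to 279 in the SS group, 268 to 369 with RSD and 190.2 to 335 with RSD + minocycline, and in the hippocampus 230.2 to 351, 302 to 434 and 203 to 337. No microglial marker was at 0. Across libraries Spearman's rho of Entpd1 with that sum was 0.69 in the cortex (n = 66) and 0.566 in the hippocampus (n = 64). With the sum of the astrocyte markers it was 0.742 and 0.516, the cortex value being above that of the microglial sum. With the microglial sum, rho of the other members ran from −0.5 (P2rx4) to 0.629 (Adk) in the cortex. In the hippocampus it ran from −0.401 (P2rx7) to 0.724 (Adk). P2rx7 was at −0.487 in the cortex and P2rx4 at −0.338 in the hippocampus. These values describe points that share group, series and depth.

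Astrocyte and endothelial markers moved in the same comparisons. Of 5 astrocyte markers, 3 were higher in series A in both tissues, namely Aldh1l1, Gfap and Slc1a3. In SS + RSD + minocycline against SS + RSD mice Aldh1l1 and Gja1 were lower in the cortex and Aldh1l1 in the hippocampus. Their summed CPM spanned 843 to 1114 in SS, 1091 to 1643 in SS + RSD and 677 to 1673 in SS + RSD + minocycline cortices, and 1211 to 1626, 1393 to 1786 and 1157 to 1681 in the hippocampus. Of 4 endothelial markers, Pecam1 and Cldn5 were higher in series A in both tissues, and Pecam1 was lower in both tissues in SS + RSD + minocycline against SS + RSD mice, with medians over the 4 markers of −0.47 and −0.41 on the log2 scale. Their summed CPM spanned 228 to 256 in SS, 204 to 276 in SS + RSD and 162 to 278 in SS + RSD + minocycline cortices, and 202 to 274, 219 to 255 and 147 to 254 in the hippocampus. The part of these cells in the Entpd1 values was not tested.

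Minocycline without RSD gave no call. SS + minocycline against SS mice called 0 of 10 members in both tissues by edgeR and DESeq2, beside 0.0% of all genes by edgeR, with 1406 genes at an unadjusted p under 0.05 in the cortex and 449 in the hippocampus, 0 of them members, and 0 genes by DESeq2. Entpd1 stood at −0.03 and −0.01 on the log2 scale, with 9.92 to 13.7 CPM in the 4 cortices. Within number series B, with 2 SS + minocycline mice, Adk was called in the cortex at 0.59 (edgeR adjusted p = 0.0278) and P2rx7 at −0.66 (edgeR adjusted p = 0.0175). The P2rx7 levels of these mice, 9888 and 9889, were 8.43 and 5.05 CPM, below all 8 SS mice at 9.47 to 12.3 CPM, while the SS + minocycline mice of series C had 11.8 and 10.7 CPM. SS + RSD + minocycline against SS + minocycline mice also called 0 of 10 members by either tool, beside 0.0% of all genes in both tissues, with 816 and 998 genes at an unadjusted p under 0.05, 0 of them members, and 0 genes by DESeq2.

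Cd38 in the SS hippocampus was the other member called with minocycline under RSD. The 6 SS + RSD mice had 7.09 to 16.95 CPM (median 9.85), the 14 SS + RSD + minocycline mice 5.25 to 11.3 CPM (median 7.66) and the 7 SS mice 7.02 to 10.3 CPM (median 9.12). The groups overlapped widely, with 3 of the 14 below every SS + RSD mouse, and the highest values came from mice 5391 and 9621. Cd38 fell by 0.52 on the log2 scale (SE 0.145, edgeR adjusted p = 0.0358). Without mouse 5391 the value was −0.35 (edgeR adjusted p = 0.141), and with the number series as a term −0.42 (edgeR adjusted p = 0.544). It was called in 5 of 14 alternatives. In the cortex the value was −0.41 without a call (edgeR adjusted p = 0.282).

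The ATP channels P2rx4 and P2rx7 were not called by edgeR in the stress, drug and genotype comparisons of all mice. P2rx4 in the AA cortex stood at 14.2, 13.4 and 11.7 CPM in the AA + RSD mice 9643, 9646 and 9674. The last is the mouse with exchanged-looking tissues, and P2rx4 was lower in the hippocampus than in the cortex of untreated mice. P2rx4 was at 13.8 to 18.6 CPM in AA mice and at 11.4 to 22.01 CPM in AA + RSD + minocycline mice, with overlap of all groups. Its log2 fold change in AA + RSD + minocycline against AA + RSD had an edgeR adjusted p of 0.0556, and DESeq2 called it at 0.34 (adjusted p = 0.0255). By DESeq2 2059 of the 21927 genes were called in that comparison. P2rx7 ranged from 5.05 to 14.8 CPM over the cortex and from 7.48 to 17.7 CPM over the hippocampus. Between SS + RSD + minocycline and SS + RSD mice, P2rx4 and P2rx7 had differences of at most 0.04 on the log2 scale in size in both tissues.

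Adora1, Adora2b, Adk and Slc29a1 gave no call in the stress and drug comparisons. Adora1 in the SS cortex was 278 to 302 CPM in 5 of the 6 SS + RSD mice and 181 CPM in mouse 9621. Adora1 in SS + RSD + minocycline against SS + RSD had a log2 fold change of −0.35 (edgeR adjusted p = 0.0752), and of −0.45 (edgeR adjusted p = 0.0337) without mouse 9621. That fit kept the SS + RSD + minocycline mice 9813 and 9890, with Adora1 at 153 and 151 CPM. Like 9621, these cortices were among the highest in striatal markers. That fit also kept mouse 5801, the cortex lowest in Adora1 at 141 CPM, with a striatal marker sum of 65.8 CPM. In mouse 9910 Adora1 was at 243 CPM, with a sum of 103 CPM. Adora1 was not called without 9621, 9813, 9890 and 9910 together. Adk, whose product turns adenosine back into AMP inside astrocytes, was at 44.6 to 66.3 CPM (median 48.7) in SS cortices and 52.98 to 73.02 CPM (median 63.4) in SS + RSD cortices. Its log2 fold change was 0.41 without a call (edgeR adjusted p = 0.0861), and a fit of these 2 groups alone called it at 0.38 (edgeR adjusted p = 0.0294). All SS + RSD mice were of series A, where Adk was also higher without treatment. Within series A the cortex means were 62.3 CPM in the 2 SS mice and 63.01 CPM in the 6 SS + RSD mice, with a log2 fold change of 0.04 (edgeR adjusted p = 1.0), and in the hippocampus 57.1 and 56.3 CPM, with 0.02 (edgeR adjusted p = 0.976). Adora2b stayed between 1.54 and 5.11 CPM in all cortices and Slc29a1 between 14.2 and 34.6 CPM, and neither was called in any of these comparisons.

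**Figure D4:**
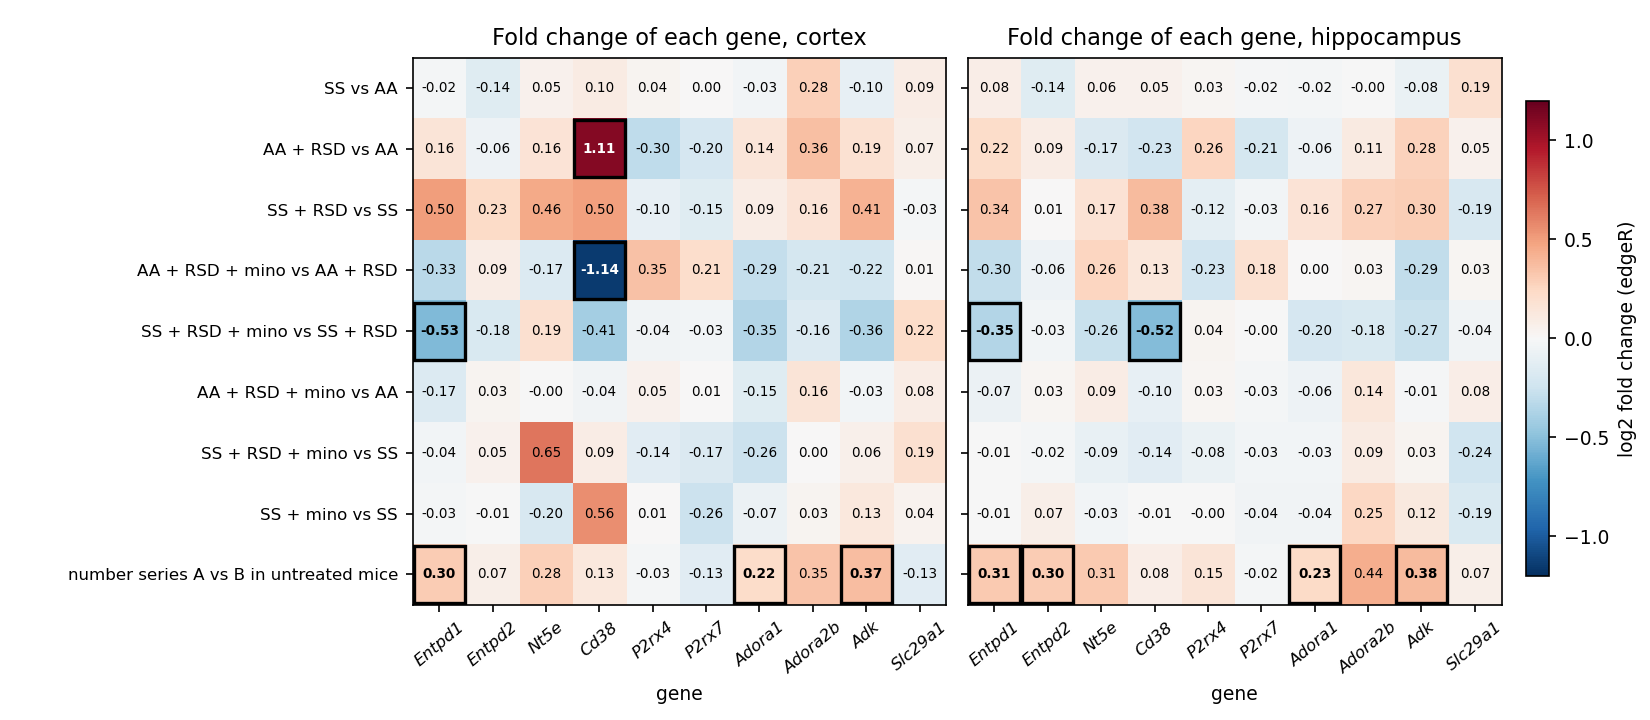
Heat map of the log2 fold change of the 10 genes in 9 comparisons, with 1 panel for the cortex and 1 for the hippocampus. Boxed bold cells passed an adjusted p of 0.05, which are Cd38 in AA + RSD against AA and in AA + RSD + minocycline against AA + RSD of the cortex, Entpd1 in SS + RSD + minocycline against SS + RSD of both tissues and Cd38 in that comparison of the hippocampus, and in series A against B Entpd1, Adora1 and Adk of both tissues and Entpd2 of the hippocampus.

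Nt5e, whose product makes most extracellular adenosine from AMP, varied most between cortex libraries through a few of them. Nt5e stood at 21.4, 13.2, 11.5 and 9.69 CPM in the cortex of mice 9890, 9813, 9621 and 5648, while every other cortex had at most 6.17 CPM. In the hippocampus Nt5e ranged from 2.14 to 5.18 CPM over all libraries. The 3 striatal markers Drd1, Drd2 and Rgs9 summed to 154, 268, 254 and 50.6 CPM in those 4 cortices, against a median of 31.6 CPM. Mouse 9910, at 103 CPM, was the other cortex above 3 times that median. Adora1 was at 151, 153, 181 and 214 CPM in the same 4 cortices. It was also low in mice 5801, 5646 and 9851, at 141, 170 and 195 CPM, where Nt5e was at 6.17, 5.12 and 3.46 CPM. Mouse 9910 had Nt5e at 3.73 CPM and Adora1 at 243 CPM. The Nt5e difference of 0.65 on the log2 scale for SS + RSD + minocycline against SS mice (edgeR adjusted p = 0.835) was 0.09 (edgeR adjusted p = 1.0) without 9621, 9813, 9890 and 9910, and that of 0.66 for SS + RSD + minocycline against AA + RSD + minocycline mice was 0.11 (edgeR adjusted p = 0.888). The part of striatal tissue in these libraries was not tested.

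**Figure D5:**
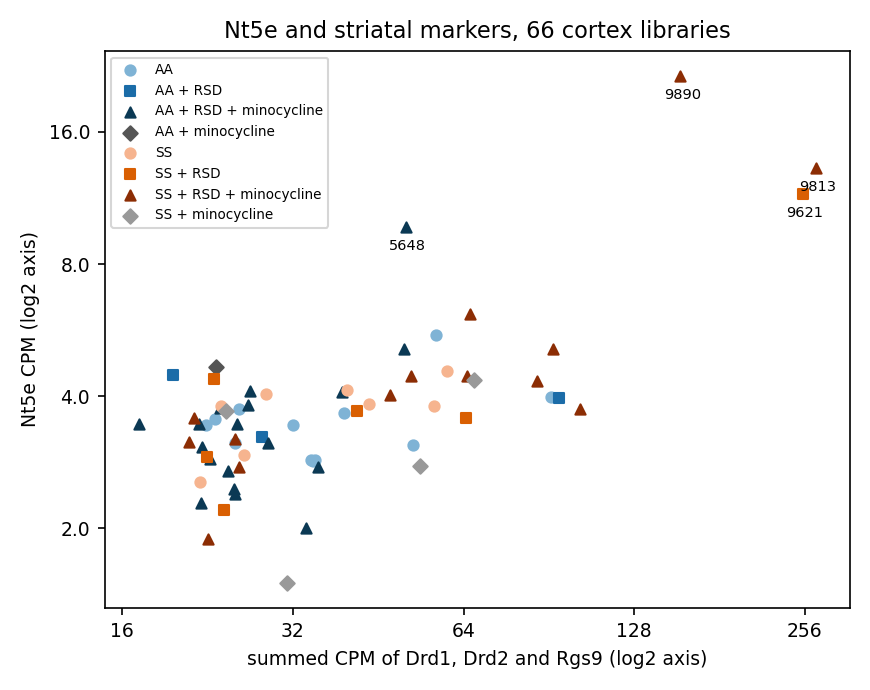
Nt5e CPM against the summed CPM of 3 striatal markers in 66 cortex libraries, both on log2 axes, with a point for each library coloured and shaped by group. The libraries of mice 9890, 9813, 9621 and 5648 are marked, with Nt5e at 21.4, 13.2, 11.5 and 9.69 CPM, and the first 3 lie high on both axes.

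Of 53 further purine and NAD genes, 52 symbols were found, Pnp in 2 rows. Between tissues 18 of 45 tested were higher and 7 lower in the hippocampus, beside 46.1% of all genes called, with a median log2 fold change of 0.15 beside 0.02 over all genes. The lowest p belonged to Slc29a4, a transporter of adenosine and monoamines, at 3.01 (SE 0.121, edgeR adjusted p = 4.84e-23), with 5.13 ± 1.77 CPM (SD, n = 20) in the cortex and 41.4 ± 10.01 CPM (SD, n = 18) in the hippocampus. Entpd6, Parp1 and P2rx5 followed at 0.69, 0.66 and 2.05. Between number series A and B of untreated mice 7 of 45 were higher and 9 lower in series A of the cortex, and 7 of 46 higher and 4 lower in the hippocampus, beside the 40.3% and 40.8% of all genes. Lowest in p were Nmrk1, P2rx6, P2ry13 and Xdh at −0.72, −0.64, 0.60 and −0.60 in the cortex, and Aprt, P2ry13, Nmrk1 and Ampd3 at 0.50, 0.62, −0.54 and −0.30 in the hippocampus.

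Bst1, which encodes the paralogue of the Cd38 enzyme and ends 24546 bases before Cd38 on chromosome 5, was the gene of this list that differed between genotypes in untreated mice. It ranged from 0.0264 to 0.687 CPM (median 0.154, n = 34) in AA cortices and from 0.195 to 1.57 CPM (median 0.619, n = 32) in SS cortices of all groups. Its log2 fold change in SS against AA mice was 2.13 (SE 0.407, edgeR adjusted p = 0.00243) in the cortex and 1.83 (SE 0.34, edgeR adjusted p = 0.00214) in the hippocampus. With RSD + minocycline in both genotypes it was 1.95 (edgeR adjusted p = 7.4e-05) and 1.96 (edgeR adjusted p = 7.1e-07). Under RSD alone, with 3 AA + RSD mice, Bst1 was not called in either tissue. Cd38 itself, beside it, differed by 0.10 (edgeR adjusted p = 0.96) and 0.05 (edgeR adjusted p = 1.0) between untreated SS and AA mice. AA libraries held as few as 1 read of Bst1 in each tissue. Blood cell markers differed in the same comparisons. The 3 erythroid markers Hba-x, Slc4a1 and Alas2 were higher in SS than in AA mice in both tissues, with medians of 3.21 and 3.44 on the log2 scale, and again under RSD + minocycline, with 3.92 and 3.47. Their summed CPM spanned 2.78 to 110.4 (median 4.8) in AA and 61.5 to 143 (median 122.7) in SS cortices. In the hippocampus the sums were 1.84 to 64.3 (median 4.02) and 52.1 to 153 (median 98.7). Mouse 5844, which went against its label, was among the AA mice, with Alas2 at 95.9 CPM in the cortex and 55.5 CPM in the hippocampus. Of the 2 lymphocyte markers Cd79a and Cd3e, 0 were called between untreated mice in either tissue, and under RSD + minocycline both were higher in SS cortices and 0 were called in the hippocampus. Their summed CPM in those cortices was only 0.17 to 0.56 in AA and 0.39 to 1.18 in SS mice. Cd3e had 0 reads in 11 cortex and 6 hippocampus libraries. The part of blood cells in the Bst1 values was not tested. In SS + RSD + minocycline against AA + RSD + minocycline cortices the striatal receptor Adora2a was also called, at 2.35 (edgeR adjusted p = 0.0042), but not without the libraries of 9621, 9813, 9890 and 9910 (1.54, edgeR adjusted p = 0.138).

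In SS mice Slc17a9, the vesicular carrier that loads ATP for release, fell by 1.49 on the log2 scale with RSD in the cortex (SE 0.372, edgeR adjusted p = 0.0405) and rose with minocycline under RSD by 1.51 (SE 0.347, edgeR adjusted p = 0.0115) in the cortex and by 1.58 (SE 0.454, edgeR adjusted p = 0.0388) in the hippocampus. Nadsyn1, an enzyme of NAD synthesis, fell by 0.61 (edgeR adjusted p = 0.0405) and rose by 0.53 (edgeR adjusted p = 0.0158) in the cortex. Both comparisons share the SS + RSD mice. Slc17a9 was low, at 0.30 to 1.99 CPM (mean 0.756) in the cortex of untreated mice. Its level in their hippocampus was 0.153 to 1.19 CPM (mean 0.592). In untreated mice Slc17a9 was lower in series A than in series B, with log2 fold changes of −0.75 (edgeR adjusted p = 0.0233) in the cortex and −1.33 (edgeR adjusted p = 0.0143) in the hippocampus, and Nadsyn1 was lower in the cortex at −0.39 (edgeR adjusted p = 0.00638). With the number series as a term both genes lost their call in the cortex (edgeR adjusted p = 1.0), and Slc17a9 in the hippocampus turned to −0.42 (edgeR adjusted p = 0.855). The calls with RSD alone were made in 6 of 16 alternatives for each gene. SS + RSD + minocycline against SS + RSD mice also gave calls for Nmrk1 at 0.68 (edgeR adjusted p = 0.0214) and Nmnat2 at −0.23 (edgeR adjusted p = 0.0357), both enzymes of NAD synthesis, in the cortex and for Slc29a3, a nucleoside transporter, at −0.32 (edgeR adjusted p = 0.0481) in the hippocampus. With the number series as a term they were −0.05, −0.18 and −0.16 without a call. For minocycline under RSD, 3 of 45 tested genes of this list were higher and 1 lower in the cortex, beside 8.85% of all genes. In the hippocampus 1 of 46 was higher and 1 lower, beside 5.96%. For RSD alone in SS mice 0 of 45 were higher and 2 lower in the cortex, beside 2.57%.

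In AA mice none of the calls of this list was made without the doubted libraries, which are those of mice 9674, 5844, 5853, 7078 and 9631. Slc29a4 was called in AA + RSD against AA cortices at 1.98 (edgeR adjusted p = 0.0168), with 42.2 CPM in 9674 against 4.83 and 3.87 CPM in the other AA + RSD cortices, and Adora2a in the hippocampus at 1.51 (edgeR adjusted p = 0.00736). Without the doubted libraries the values were −0.01 and 0.17 without a call. Slc28a3, a nucleoside transporter, was called in the cortex at 4.63 (edgeR adjusted p = 0.000556), with 30 reads in 9674 and 3 and 1 reads in the other AA + RSD cortices. Without the doubted libraries it had too few reads to be tested. Of AA + RSD + minocycline against AA + RSD mice, Slc28a3, Slc29a4, Nadsyn1 and Ahcy were called in the cortex at −4.83, −1.69, 0.63 and −0.81, and Adora2a and Parp1 in the hippocampus at −1.56 and 0.42. Without the doubted libraries Slc29a4, Nadsyn1 and Ahcy were at 0.34, 0.74 and −0.65, Adora2a and Parp1 at −0.24 and 0.31, and none of these 5 was called. The remaining calls were Adora2a in SS + RSD against AA + RSD hippocampi at −1.17, and the interaction of genotype and RSD for Slc28a3 in the cortex at −6.57 and for Adora2a in the hippocampus at −1.67, all 3 without a call when the doubted libraries were left out.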

How the data were processed

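Per the labels and the study's methods, directional polyA libraries were read from 1 end and aligned by the authors with STAR to GRCm39, and reads were counted per GENCODE gene while mapping. The authors deposited 1 table of raw counts per tissue, whole numbers without normalization. The STAR version, the annotation release and the strand setting are not given in the sources used here. Of the table columns, 3 match no library with a known group and were not used, nor was 1 library whose labels name different tissues. In each tissue 2 libraries with identical counts under different groups were left out, which left 66 cortex and 64 hippocampus libraries, with medians of 33447552 and 34199033 reads on genes. The lines that name no gene were kept out of library sizes, and the reads outside genes among them had a median of 8.25% of all reads in the cortex. Replicates are mice by their numbers.

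CPM was computed from the counts over all genes of a library, and RPKM by dividing it by the exonic length in GENCODE. Differences were tested with edgeR 4.0.16 in R 4.3.3 (TMM, filterByExpr with a minimum count of 10 and a minimum total of 15, quasi-likelihood test, Benjamini-Hochberg over all genes), in 1 model per genotype and tissue, with 1 model of all groups for comparisons across genotypes and interactions, and 1 of untreated mice for the tissues with genotype as a term. The scripts' tests were tested on simulated data. Alternatives were DESeq2 1.42.0, RLE size factors, no filter, the number series or the share of reads outside genes as a term, 1 series alone, only the groups compared, identical or doubted libraries kept or left out, each mouse of a small group left out and, between tissues, the mouse as a replicate block. The pairing comes from the shared mouse numbers, and the deviations of the 10 members in both tissues correlated over 18 mice with r from 0.157 to 0.875. The fits without the cortex libraries highest in striatal markers and the comparison of number series were chosen after seeing the data. The 10 members and all gene lists were chosen with earlier results of these data known. The text gives every member, up to 4 called genes of lowest p per comparison from the 53 further purine and NAD genes, and marker genes, of which 4 are not reported here. Promoters came from RefSeq (GRCm38.p6).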

Additional observations from a re-analysis of the deposited data

Results flagged for a closer look

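Within groups of 4 to 10 mice, 60 sets of values were checked for 1 mouse far from the rest, judged by its gap to the next mouse against the whole range, and 5 stood apart. Chance alone flags about 1 in 20 groups, here 3. The values that stood apart were mostly those of mouse 9621 (SS + RSD). Adora1 in its cortex was 181 CPM against 278 to 302 CPM in the other 5 SS + RSD mice, and Nt5e was 11.5 CPM against 2.20 to 4.37 CPM. Entpd2 in its hippocampus was 4.73 CPM against 6.31 to 7.19 CPM. The striatal marker sum in the cortex of this mouse was 254 CPM, against a median of 31.6 CPM, and the part of striatal tissue in the cortex values was not tested. Cd38 was 5.32 CPM in the cortex of SS + minocycline mouse 9888 against 2.20 to 2.59 CPM in the other 3. Nt5e was 2.14 CPM in the hippocampus of SS mouse 9903 against 3.73 to 4.76 CPM in the other 6.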

How the results depend on the processing

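Over 29 comparisons and 334 alternatives, the number of the 10 members called was within 1.5 times of the one reported in 307, and moved in 27, which belong to 8 comparisons. A count of 0 against 0 was taken as within, and most comparisons had 0 members called. Every stress or drug comparison with a call was among those that moved. For hippocampus against cortex, 5 members were called and 6 with the mouse as a replicate block or with the reads outside genes as a term, where Adk was added in both, and the block changed no other call of this comparison. No paired analysis was possible for the other comparisons because their groups share no mouse. In AA + RSD + minocycline against AA + RSD cortices, 1 member was called, 2 by DESeq2, 0 with the number series or the reads outside genes as a term, 0 without the doubted libraries, and 0 to 1 with each AA + RSD mouse left out, where 0 came without mouse 9674. In AA + RSD against AA cortices, 1 was called, 0 with either term, without the doubted libraries, with only these groups or with series A alone, and 0 to 1 with a mouse left out, 0 without mouse 9674. In SS + RSD + minocycline against SS + RSD mice, the cortex count of 1 was 0 with either term and 1 with each mouse left out, which without mouse 9621 was Adora1 and not Entpd1, and the hippocampus count of 2 was 0 without the filter, 0 with either term, 1 with only these groups and 0 to 2 with a mouse left out. There 0 came when 5354, 5391, 9615, 9616 or 9621 was left out. In SS + RSD against SS mice, the count of 0 was 1 by DESeq2 in both tissues and 2 with only these groups in the cortex. SS + minocycline against SS cortices gave 2 in series B alone, and SS + RSD against AA + RSD hippocampi gave 2 without mouse 9643 (0 to 2 with a mouse left out). The cause of these moves was not tested. Cd38 in the cortex rested on 25 to 318 reads a library, which limits its precision.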

Other observations

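AA + minocycline was 1 mouse, 10639, and entered no comparison. Its cortex had Entpd1 at 13.9 CPM, Cd38 at 2.42 CPM, Adora1 at 218 CPM, P2rx7 at 12.9 CPM and Adk at 42.1 CPM. Its hippocampus had Entpd1 at 12.2 CPM, Cd38 at 6.56 CPM, Adora1 at 301 CPM, P2rx7 at 13.8 CPM and Adk at 38.1 CPM. The Adk value of the cortex lay below all 12 AA mice, which ranged from 45.1 to 67.3 CPM, and that of the hippocampus below all 11, which ranged from 41.8 to 66.3 CPM. This mouse was of series C and all AA mice of series A or B. The other series C mice without RSD, 2 of SS + minocycline, had Adk at 40.2 and 44.9 CPM in the cortex and 37.4 and 37.9 CPM in the hippocampus, and the 3 AA + RSD + minocycline mice of series C had 42.8 to 46.8 and 36.8 to 39.9 CPM. Without a second mouse no test was possible.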
